A study of Arabidopsis thaliana with 10 samples.

Results

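The growth regulating factor genes *GRF1* to *GRF9* and *AN3* (also called *GIF1*) were taken from the table of this mRNA-Seq experiment by their Arabidopsis locus identifiers. All 10 loci were present among the 33851 genes of the table. The rule that selected them used no measured value, but they were chosen with earlier results of these data known. Other genes bear the same symbols, since 11 further genes of the TAIR10.1 annotation are named *GRF* for general regulatory factor, an unrelated family, so that only the locus identifies a member. The loci are *AT2G22840* (*GRF1*), *AT4G37740* (*GRF2*), *AT2G36400* (*GRF3*), *AT3G52910* (*GRF4*), *AT3G13960* (*GRF5*), *AT2G06200* (*GRF6*), *AT5G53660* (*GRF7*), *AT4G24150* (*GRF8*), *AT2G45480* (*GRF9*) and *AT5G28640* (*AN3*).

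The libraries were made from tissue enriched in shoot apical meristems of seedlings grown on plates under long days, at 8 and at 15 days of age. According to the paper this tissue included leaf primordia, so the libraries do not hold meristem cells alone. There were 5 genotypes. The wild type was Col-0, 2 genotypes carried 1 mutant allele each, either *clv3-2* or *jba-1D/+*, and the other 2 were the double mutant *jba-1D/+ er-20* and the triple mutant that adds *clv3-2* to it. The allele *clv3-2* impairs the stem cell signal CLV3, *jba-1D* is a dominant allele, used here in heterozygous plants, that raises the microRNA gene *MIR166g*, and *er-20* impairs the receptor-like kinase ERECTA. Thus 4 of the 10 libraries carried *clv3-2*, 6 carried *jba-1D/+* and 4 carried *er-20*, the last always together with *jba-1D/+*. Each genotype and age was a single library from 1 pool of dissected apices, so no spread between replicates exists. The 10 columns of levels in the table carry headings that match no genotype or age. They were not used, and neither a level nor a direction of change is given for any gene. The labelled tissue could for the same reason not be checked against meristem and leaf markers.

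What the table gives for each member is its cluster, the group in which the authors placed the gene when they sorted genes by the shape of their pattern over the 10 libraries. A cluster number is a name, with no size and no order. Genes of 1 cluster have patterns of like shape, whereas genes of different clusters may still resemble each other, and a gene of low level has an uncertain cluster. The clusters are described below beside the sequences of the members, which come from the TAIR10.1 genome.

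GRF proteins are plant transcription factors that hold a QLQ domain, through which they bind a cofactor, and a WRC domain, through which they bind DNA and enter the nucleus. AN3 (ANGUSTIFOLIA3, GRF-INTERACTING FACTOR1) is such a cofactor. It has no DNA-binding domain of its own and joins GRF proteins to SWI/SNF chromatin remodelling complexes. In leaf primordia GRFs and AN3 sustain cell division, and the microRNA miR396, which accumulates as leaf cells mature, lowers most *GRF* mRNAs by pairing with a site in their coding sequence. TCP transcription factors of the CIN type promote *MIR396* expression in Arabidopsis leaves.

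The mature miR396 sequences are shown because the sites of the members are read against them. Both forms are 21 bases long, and capitals mark the seed (bases 2 to 8), which the forms share. In TAIR10.1 miR396a-5p lies at chr2:4142443-4142463 on the reverse strand and miR396b-5p at chr5:13611808-13611828 on the forward strand.
miR396a-5p: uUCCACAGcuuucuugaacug
miR396b-5p: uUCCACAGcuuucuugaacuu

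The sites of 7 *GRF* genes are shown next, as DNA of the mRNA strand, since these short stretches separate the members into groups. Each is 22 bases long, 1 base longer than the complement of the microRNA. Capitals mark bases that differ from the complement of the nearer miR396 form, the extra base included.
*GRF1*: TCgttcaagaaagCctgtggaa
*GRF2*: TCgttcaagaaagCctgtggaa
*GRF3*: cCgttcaagaaagCctgtggaa
*GRF4*: cCgttcaagaaagCctgtggaa
*GRF7*: TCgttcaagaaagcAtgtggaa
*GRF8*: TCgttcaagaaagcAtgtggaa
*GRF9*: aCgttcaagaaagcTtgtggaa

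The 7 genes thus carried 4 different sites. *GRF1* and *GRF2* had the same site, as had *GRF3* and *GRF4*, and *GRF7* and *GRF8*, while that of *GRF9* occurred once. Any pair of the 7 sites differed at 0 to 2 bases. With the extra base counted as 1 difference, *GRF3* and *GRF4* differed from the miR396a complement at 2 bases and from the miR396b complement at 3. *GRF9* was the reverse, with 2 differences to miR396b and 3 to miR396a. *GRF1*, *GRF2*, *GRF7* and *GRF8* had 3 differences to both forms.

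All 7 sites lay within coding sequence and within a single exon. The site of *GRF1* is at chr2:9729944-9729965 (forward strand, exon 3 of 4), that of *GRF2* at chr4:17726404-17726425 (reverse strand, exon 3 of 4) and that of *GRF3* at chr2:15271745-15271766 (reverse strand, exon 3 of 4). These 3 genes and *GRF4*, with its site at chr3:19617293-19617314 (reverse strand, exon 3 of 4), share the exon of the site. In *GRF7* it is at chr5:21795145-21795166 (forward strand, exon 2 of 3), in *GRF8* at chr4:12538649-12538670 (forward strand, exon 5 of 6) and in *GRF9* at chr2:18746292-18746313 (forward strand, exon 2 of 4). The plot of the transcripts shows the site near the middle of the coding sequence in *GRF1* to *GRF4* and *GRF8*. Relative to coding length it is nearest the start in *GRF9*, and *GRF7* lies between.

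**Figure D1:**
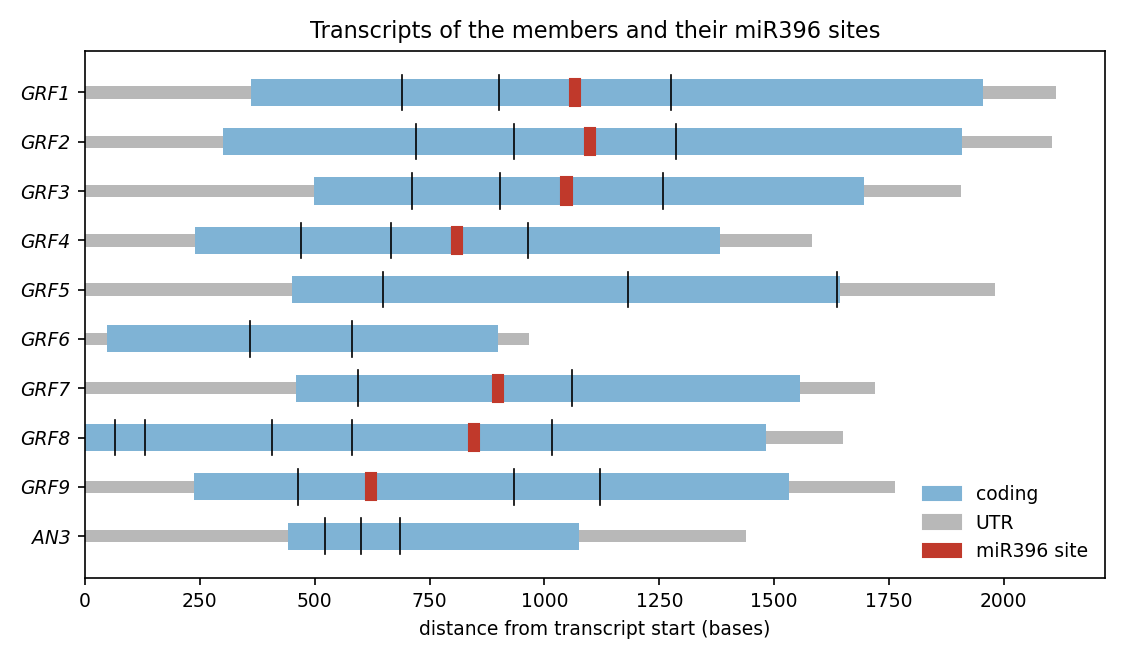
Spliced transcripts of the 10 members in TAIR10.1, 1 per gene (that with the longest coding sequence), along the distance from the transcript start in bases. Wide bars are coding sequence, narrow bars untranslated sequence, black ticks exon junctions and red blocks the 22-base miR396 sites, which 7 members carry and *GRF5*, *GRF6* and *AN3* do not.

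In each of the 7 genes the site began on base 3 of a codon, and 7 whole codons followed. The first whole codon was number 126 of 431 in *GRF9*, 144 of 365 in *GRF7*, 181 of 398 in *GRF3* and 188 of 380 in *GRF4*. It was codon 233 of 530 in *GRF1*, 264 of 535 in *GRF2* and 280 of 493 in *GRF8*. Reading frame was therefore shared by all 7 although the distance from the start codon was not.

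Around the site the coding sequences of the 7 genes were less alike. Of the 30 positions before the site, 9 (30%) held the same base in all 7 genes, and of the 30 after it 0 did. In the site itself the number was 20 of 22 (90.9%), but the 7 genes had been taken for their match to miR396 there, which fixes much of that agreement, so it is no sign of conservation. With *GRF5* added, whose stretch was placed by protein alignment and not by a match, 13 of 22 positions were the same in all 8 genes. The counts beside the site were 9 of 30 before and 0 of 30 after. Since 7 of these 8 genes were still those taken for their match, this count is no sign of conservation either. The windows were compared base by base with no gaps, so an insertion near the site in 1 gene lowers the agreement on that side. No test was made.

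**Figure D2:**
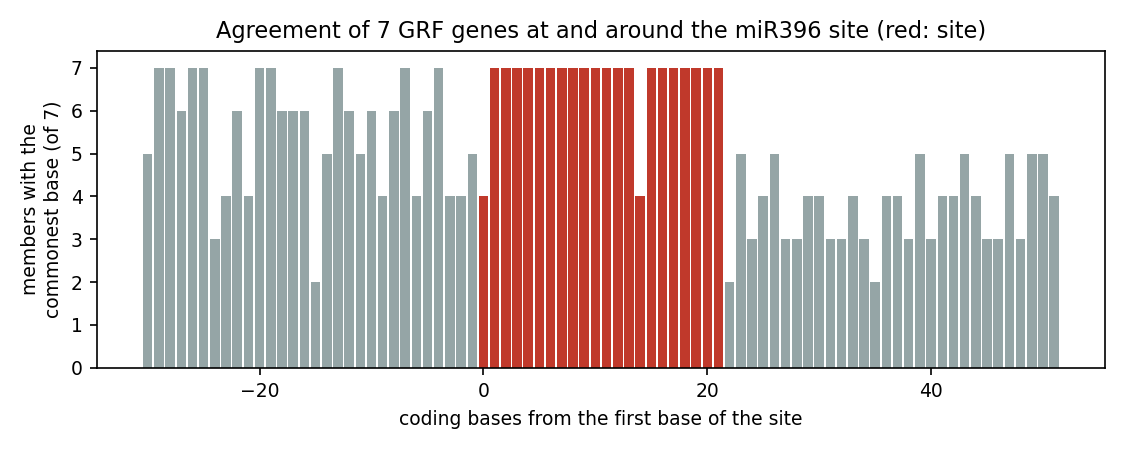
Number of the 7 site-bearing *GRF* genes with the commonest base at each coding position, from 30 bases before to 30 bases after the miR396 site (site in red, x axis in bases from its first base). The bars reach 7 at 9 of the 30 positions before the site and at 0 of the 30 after it, and at 20 of 22 in the site, where the match to miR396 chose the genes.

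*GRF5*, *GRF6* and *AN3* carried no such site. Matches that hold an extra base had at least 7, 8 and 7 differences anywhere in the transcript, and matches without one at least 7, 6 and 8 mismatches. The best of the latter in *GRF6* and *AN3* both lay in exon 2, *GRF6* at chr2:2426674-2426694 and *AN3* at chr5:10648474-10648494 (reverse strand). They are shown with mismatches in capitals, to set them against the sites above.
*GRF6*: cagAGcCagGaagAtgtAgaa
*AN3*: aaACtcTGgaaagctTAgCGa

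For *GRF5* the stretch that corresponds to the sites of its relatives could be located by aligning the proteins, and 6 of 7 alignments placed it at chr3:4609155-4609176 (forward strand, exon 2 of 4). Capitals mark the bases that differ from the site that *GRF3* and *GRF4* share, the nearest to it.
*GRF5*: ccgtGcCagaaaATctCtTgaT
It differed from the *GRF3* site at 7 of 22 bases and encoded the same residue at 3 of 7 codons. With 8 differences to miR396a, this aligned stretch of *GRF5* was no match at the limit used. For *GRF6* 1 of 7 alignments placed a stretch, and none is shown. The absence of a match says that these letters are not in the annotated transcript, and nothing about the regulation of the gene.

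To see how rare such matches are, the scan was run on 1 transcript of each of 27556 protein-coding genes. With or without an extra base, a match of at most 3 differences was found in 21 genes (0.0762%), and 7 of these were *GRF* genes. At 2 differences there were 3 genes, *GRF3*, *GRF4* and *GRF9*, and at 3 differences 18, of which 4 were *GRF1*, *GRF2*, *GRF7* and *GRF8*. Matches that hold an extra base occurred in 14 genes (0.0508%), the 7 *GRF* genes and 7 others. These others included *FLU*, a regulator of chlorophyll synthesis, the ethylene response factor gene *RAP2.12* and the thioredoxin gene *ACHT5*. *FLU*, *RAP2.12* and *ACHT5* matched equally well without the extra base, at 3 mismatches, and so are also among the ungapped matches given next. The rest, *AT1G10875*, *AT2G44220*, *AT3G13670* and *AT4G33620*, had 4 to 6 mismatches without it. Without an extra base, 10 genes had at most 3 mismatches (0.0363%) and 0 of the 10 members were among them, since their mismatches numbered 5 to 8. Matches with an extra base were searched for after the ungapped matches had been seen.

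**Figure D3:**
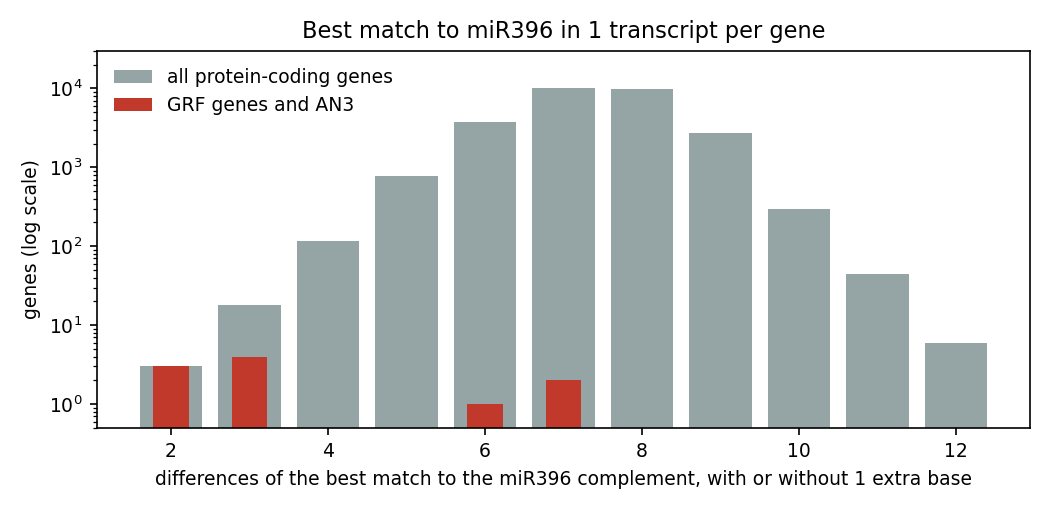
Differences between the best match in a gene's transcript and the complement of miR396a or miR396b, with or without 1 extra base, against the number of genes on a log scale (grey: all 27556 protein-coding genes, red: the 10 members). Members sit at 2 and 3 differences (3 and 4 genes), well below the bulk of genes, and at 6 and 7 (1 gene and 2 genes).

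The gene models of the members are as follows. *GRF1* spans chr2:9728480-9731301 (forward strand) and encodes 530 codons before the stop, and *GRF2* spans chr4:17725337-17727909 (reverse strand) with 535. *GRF3* (chr2:15270088-15273115, reverse strand) has 398 codons and *GRF4* (chr3:19615977-19618507, reverse strand) 380. These 4 genes, which regulate leaf size redundantly in Arabidopsis, each have 4 exons and a single annotated transcript. *GRF5* (chr3:4608076-4610497, forward strand), which raises leaf cell number when overexpressed, has 397 codons in 4 exons, whereas *GRF6* (chr2:2426176-2427355, forward strand) is the shortest *GRF* gene with 283 codons in 3 exons. *GRF7* (chr5:21794177-21796092, forward strand), known as a repressor of *DREB2A*, has 365 codons, *GRF8* (chr4:12535972-12539576, forward strand) 493 and *GRF9* (chr2:18745249-18747634, forward strand) 431. *AN3* (chr5:10647467-10650066, reverse strand) is the shortest member in coding sequence, with 210 codons in 4 exons.

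Since the reads were 51 bases long, each member's transcripts were searched for 51-base words that occur elsewhere. For 8 of the 10 members there was no such word at another place in the genome or in the mRNA of another gene. *GRF4* had 18 of 1532 words at another place in the genome. *GRF9* had none there, and 76 of its 1993 words were in the mRNA of another gene. The gene of *GRF9* overlaps the Aurora kinase gene *AUR3* on the opposite strand by 126 bases, and *GRF1* overlaps *bZIP6* by 23 bases. *GRF3* overlaps *SBE2.1* by 5 and a long noncoding RNA gene by 227, and *GRF7* overlaps another noncoding RNA gene by 244. Words were compared on either strand, and with mRNAs but not with noncoding RNAs. The *AUR3* overlap can thus enter the count of *GRF9*, while the overlaps with noncoding RNA genes enter none. The sources used here do not give the strandedness of the libraries, and without it reads from such overlaps cannot be told apart.

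Every member had a cluster, and no pair of members had the same one. Of the 33851 genes, 25883 were assigned to 1 of 1000 clusters, and the 10 members fell into 10 clusters. Thus 0 of the 45 pairs of members shared a cluster, beside 0.226% of all pairs of clustered genes, 0.187% of pairs of protein-coding genes and 0.146% of pairs of genes in clusters of at most 100 genes. With so few pairs, 0 is also what the share over all genes would give, so the count does not set the members apart. The clusters of the members held 18 to 54 genes with a median of 38, beside a median of 19 over the 1000 clusters. A large cluster holds more genes, and over genes the median cluster size was 33.

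**Figure D4:**
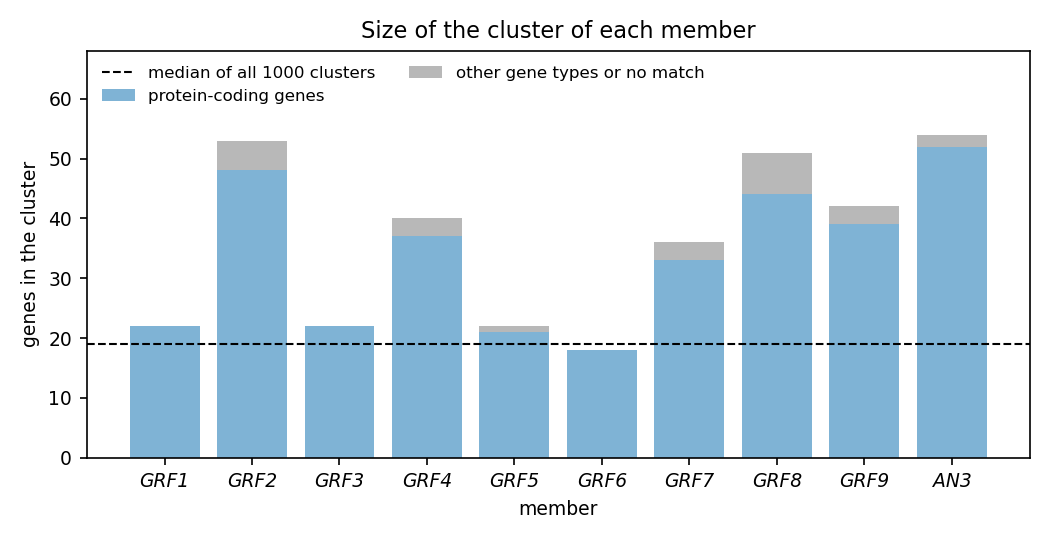
Number of genes in the cluster of each member, divided into protein-coding genes and other gene types or loci with no match in TAIR10.1. Bars run from 18 genes (*GRF6*) to 54 (*AN3*), and the dashed line is the median of all 1000 clusters, 19 genes.

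Likeness in sequence was not accompanied by a shared cluster. The closest coding sequence of *GRF1* was *GRF2* (70.7% identity over 1253 bases), and they were in clusters 878 and 405. *GRF3* and *GRF4* were closest to each other (70.9% over 1246 bases) and lay in clusters 891 and 890, consecutive numbers that carry no closeness. *GRF5* and *GRF6*, the *GRF* genes without a site, were each other's closest match, in clusters 634 and 239. Their alignment (83.9% identity) covered only 137 bases of coding sequences of 1194 and 852 bases. *GRF7*, *GRF8* and *GRF9* were closest to *GRF2*, over 126, 126 and 137 bases, with identities of 81.0%, 84.1% and 75.2%. In all, 0 of the 9 *GRF* genes shared a cluster with its closest copy, beside 256 of 15439 genes (1.66%) in the whole table, a share at which 0 of 9 is the usual count. *AN3* had no other coding sequence within the limit of the search.

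Genes with the same miR396 site also lay in different clusters. The pairs *GRF1* and *GRF2*, *GRF3* and *GRF4*, and *GRF7* (cluster 329) and *GRF8* (cluster 61) have identical sites, and 0 of these 3 pairs shared a cluster, which beside 0.226% of all pairs does not set them apart. For *GRF1* to *GRF4* the pairs are those of the closest copies. *GRF9* was in cluster 866. The precursor gene *MIR396A* was in cluster 244, one of the largest with 242 genes, of which 172 are protein-coding and 32 are annotated as pseudogenes, and which held no other microRNA gene matched in TAIR10.1 and no member. *MIR396B* had no cluster.

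Among the cofactors, *AN3* was in cluster 104. Its relatives *GIF2* and *GIF3*, which act redundantly with it, were in clusters 323 and 708. *GIF2* shared its cluster with *BRM*, the SWI/SNF ATPase gene, which belongs to the list of AN3 partners and targets. Among all listed genes 7 pairs shared a cluster, 6 of them within the cell division list. Beside 0.226% of all pairs of clustered genes, *GIF2* and *BRM* are a single shared cluster and no more. None of the 9 genes of that list of partners and targets was in the cluster of a member, which at this share is the usual count for so few pairs. The ATPase gene *SYD* was in cluster 167, and *SWP73B*, which encodes a SWI/SNF subunit, in cluster 854. Of the genes that AN3 is known to bind, *HEC1*, *ARR4* and *COL5* were in clusters 461, 572 and 559.

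The 8 CIN-type *TCP* genes all had a cluster, each a different one, and none was that of a member. Beside 0.226% of all pairs of clustered genes in a shared cluster, 0 is the usual count for so few pairs and does not set them apart. *TCP4*, known to activate *MIR396B*, was in cluster 529, and *TCP2* and *TCP3* were in clusters 672 and 158. Of 11 genes of leaf growth, 1 was in the cluster of a member. This was *JAG* (*JAGGED*), a zinc finger gene that promotes growth of the distal leaf and petal, in cluster 104 with *AN3*. *ANT*, which prolongs organ growth, *KLU*, a cytochrome P450 gene of organ size, and *SPT*, a bHLH gene that restrains leaf growth, were in clusters 605, 100 and 287. Of the 8 genes of cell division, 4 (*CYCB1;1*, *CYCB1;2*, *KN* and *HIK*) were together in cluster 564, which held no member. They make 6 pairs in a shared cluster, where 0.226% of all pairs of clustered genes share one. This list was chosen with earlier results of these data known, so it is no measure for the members.

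Over all lists, 39 of 40 genes had a cluster, and 1 of the 390 pairs of a member and a listed gene fell in the same cluster, close to the 0.226% of all pairs. *JAG* and *AN3* are thus a single shared cluster and no more. Their cluster also held *STY2*, a gene of the SHI family that activates auxin synthesis, *LSH1*, a relative of organ boundary genes, and *GA2OX4*, an enzyme that inactivates gibberellin. *HDA19*, a histone deacetylase gene, *NRPB1*, the gene of the largest subunit of RNA polymerase II, and *VAL3* were there as well. These and the further cluster partners named from here on were picked for their known roles after the clusters had been seen, and they are no evidence of a theme.

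The 10 clusters held 350 genes besides the members, of which 326 (93.1%) were protein-coding, beside 91.0% of all clustered genes. *GRF1*, in cluster 878 with 22 genes, stood with *NUC-L1*, a nucleolin gene of ribosome production, *NRPA2*, a subunit gene of RNA polymerase I, and *LOS1*, a translation elongation factor gene. The chromatin remodeller gene *PKL* was also there. *GRF2*, in cluster 405 with 53 genes, stood with *SPCH*, which starts the stomatal lineage, *VRN5*, a gene of vernalization, and *HIRA*, a histone chaperone gene. *IAA20*, an auxin response gene, was in the same cluster.

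*GRF3*, in cluster 891 with 22 genes, had the acetyltransferase gene *HAC12*, the tubulin gene *TUB5* and the zinc finger gene *ZAT6* as partners. *GRF4*, in cluster 890 with 40 genes, stood with *KAPP*, a phosphatase gene whose product binds the CLV1 receptor, *BIG*, required for auxin transport, and *RPK1*, a receptor-like kinase gene of embryo patterning. *GRF5*, in cluster 634 with 22 genes, was with *ER*, the gene of ERECTA, the receptor that *er-20* impairs, and with *DEL2*, an E2F-like cell cycle gene. The *er-20* allele was present in 4 libraries, but without the levels its relation to the cluster was not tested.

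*GRF6* had the smallest cluster, number 239 with 18 genes, among them *GIS*, a zinc finger gene of trichome initiation, and the sodium transporter gene *HKT1*. *GRF7*, in cluster 329 with 36 genes, stood with *YUC1*, an auxin synthesis gene, and *VRN1*. *GRF8*, in cluster 61 with 51 genes, stood with *CLV2*, a receptor-like protein gene that acts in CLV3 signalling, *WOX2*, an embryo patterning gene, and *AGO2*. *GRF9*, in cluster 866 with 42 genes, stood with *NUB*, a paralog of *JAG*, and with *SDE3* and *KTF1*, genes of RNA silencing.

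Of the 326 protein-coding partners, 1 had a match to miR396 of at most 3 differences, with or without an extra base. This was *AT3G01790*, in the cluster of *GRF1*. The share over all clustered genes was 20 of 23573 (0.0848%), and these 20 include the 7 *GRF* genes, which the partners leave out. Genes that neighbour a member on its chromosome were in other clusters in 16 of 16 pairs in which both had one, beside 1.03% of neighbouring pairs in the same cluster over the genome. *ANT* is the next gene after *GRF2*, at a distance of 11604 bases, and *AUR3*, which overlaps *GRF9*, was in cluster 479.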

How the data were processed

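Single-end reads of 51 bases had been made from TruSeq-RNA libraries. Per the paper and the submitters' processing notes, the authors trimmed them (Trimmomatic 0.32), aligned the remainder to the TAIR10 genome (TopHat2 2.0.12, Bowtie2 2.1.0) and computed gene levels (Cuffdiff 2.2.1). They then sorted genes by *k*-means with centered correlation over the libraries. The deposited cluster number, 1 per gene, is the value used. This similarity compares the shapes of patterns, so genes of very different abundance can share a cluster. A further 10 columns of levels, whose headings match no sample, were not used. The planned fits of age and genotype were therefore not run, and the depth of each library was not analysed here.

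Members and lists were chosen with earlier results of these data known. The genes named are the 10 members, listed genes, and cluster partners picked after the clusters had been seen. Loci were matched to RefSeq TAIR10.1 (31334 of 33851), whose sequences are printed. The build differs in name from the authors' TAIR10, and the table has no coordinates. The transcript with the longest coding sequence stood for each gene. Matches to miR396 were called at no more than 3 differences, and closest copies came from BLAST 2.17.0 (expectation at most 1e-10). The stretch of *GRF5* that corresponds to the sites of its relatives was placed by pairwise local protein alignment. The scan for sites and the count of pairs were tested on simulated data. Python 3.11.15, numpy 2.4.6, pandas 2.3.3 and matplotlib 3.10.9 were used.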

Additional observations from a re-analysis of the deposited data

How the results depend on the processing

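Alternatives bore on 3 results. The number of members with a miR396 match was 0 of 10 for ungapped matches of at most 3 mismatches and stayed 0 at 4 mismatches. It moved to 7 for matches that hold an extra base and at most 3 differences, to 3 at 2 differences and to 7 at 4 differences, where 72 genes had such a match. With or without the extra base, it was 7 at 3 differences. The extra base and these limits were chosen after seeing the data, and the cause of the move is the extra base that the sites of 7 *GRF* genes hold. The count of 0 pairs of members in a shared cluster stayed at 0 among protein-coding genes only (0.187% of all such pairs) and without clusters of over 100 genes (0.146%). The 1 listed gene in the cluster of a member remained in both settings. These 2 settings only leave genes out, so they could not raise the count of 0. All members and *JAG* are protein-coding, and the clusters of the members held at most 54 genes. Neither count could therefore change, and the settings are no check of them. Alternatives of pseudocount, filter, scaling, model and left-out library were not run, since they need the levels. No paired analysis was possible because the levels, which pairs of ages within a genotype would need, were not used. Cluster numbers come with no measure of their error, and whether another run of the clustering would place the members alike was not tested.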
